A study of Apis mellifera with 13 samples.

Results

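Antennae of worker honey bees that opened Varroa-infested brood cells (VSH) were compared with antennae of nest mates of the same age that did not (NVS), over all expressed genes and pair by pair. A gene entered when its values summed to at least 20 over the 8 libraries of the comparison, which kept 10204 of the 13414 genes in the table. A further 1977 genes were at 0 in all 8 libraries and 1233 were above 0 but under that sum. The comparison used 8 of the 13 libraries of the series, and the other 5, from foragers and nurses, served only to describe the same genes in independent bees.

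VSH libraries 1 to 4 came from marked workers seen opening, enlarging or emptying capped cells that held Varroa mites. NVS libraries 1 to 4 came from marked workers of the same observation hive that were watched and never seen doing this. Both groups were marked bees from a colony with this behaviour, placed with Varroa-infested brood. The bees were hybrids of ligustica and carnica, and only the flagellum of each antenna was taken. Per the paper the groups also differed in infection, with a larger share of viral reads in NVS than in VSH libraries. The paper proposes that metabolic and motor differences could relate to viral load. It considers an antiviral response likely for defence genes higher in NVS. Viral load was not a term in the fits, so its part in any difference below was not tested. The bees of pair 1 had a mean age of 7.5 days in both groups. Mean ages in VSH and NVS bees were 9.75 and 9.5 days in pair 2, 12.5 and 12.25 days in pair 3, and 17 and 17.5 days in pair 4, a pair being the libraries that carry the same number. Each library pooled the antennae of several bees of 1 colony, so the groups stand for 1 hive. The labels say no more on how independent the replicates are, and p-values measure only the spread between these libraries.

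The bee antenna carries the olfactory sensilla, where odorant receptors sit on sensory neurons bathed in a lymph rich in odorant-binding proteins, chemosensory proteins and enzymes that clear odours. Besides neurons it holds glia, support and epidermal cells, tracheae, haemolymph with haemocytes, and the cuticle. In Varroa-sensitive hygiene, workers find capped cells that hold reproducing mites, largely by smell, and open or clear them.

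Column sums lay between 1.92e7 and 2.03e7 in all 8 libraries, and the 10 highest genes took 12.8% to 13.9% of each. The values were pseudo-counts already scaled between libraries, so true sequencing depth was unknown and no counting interval was derived. The antennal label held: Or2, the co-receptor that all odorant receptors need, lay between 9239 and 13125 in the 8 libraries, and the glial marker repo between 2272 and 3051. The summed level of 5 photoreceptor markers, which an antennal flagellum should lack, was 172 to 331. Pearson's correlation between libraries of the same group was 0.979 to 0.988. Deviations from the group mean correlated positively within each of the 4 pairs, by 0.161, 0.215, 0.276 and 0.388 for pairs 1 to 4 over 8133 genes. VSH library 1 correlated more with NVS library 2 (0.279) than with its own pair mate, and VSH library 2 with NVS library 1 by 0.132. A median of 48.9% of a gene's variation lay between pairs (3 degrees of freedom), 12.7% between VSH and NVS (1 degree of freedom) and 27.4% in the rest (3 degrees of freedom). 2 libraries stood apart in particular genes. NVS library 2 had high heat-shock transcripts, and VSH library 4 had high muscle and storage-protein transcripts, and both are given beside the results they touch. In whole tissue, fewer cells of a type and less RNA per cell cannot be told apart.

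With the pair as a block, 127 genes passed an adjusted p of 0.05 (limma on log2(value + 1), Benjamini-Hochberg over all genes tested), which is 1.24% of them. Of these, 87 rose in VSH antennae (0.853%) and 40 fell (0.392%). Most changes were small: the median log2 difference was 0.43 among the genes that rose and −0.47 among those that fell, and only 6 and 8 genes exceeded 1 in size. The direction was shared by all 4 pairs for 86 of the 87 higher genes and for all 40 lower genes. In 52 of the higher genes every VSH library lay above every NVS library, and in 27 of the lower genes every VSH library lay below. Over all genes tested such a separation occurred in 2.86% and 3.26%. The calls were picked on these same differences, so shared direction and separation are no separate support for them. The number of calls depended strongly on the model. Without the pairs only 4 genes passed (0.0392%), and with the pairs but without a trend of the variance on the level no gene passed, although 1346 genes had an unadjusted p under 0.05 there. Leaving out pair 1, 2, 3 or 4 gave 213, 26, 2 and 13 calls, and rescaling the columns to equal totals gave 47 higher and 41 lower genes in place of 87 and 40.

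**Figure D1:**
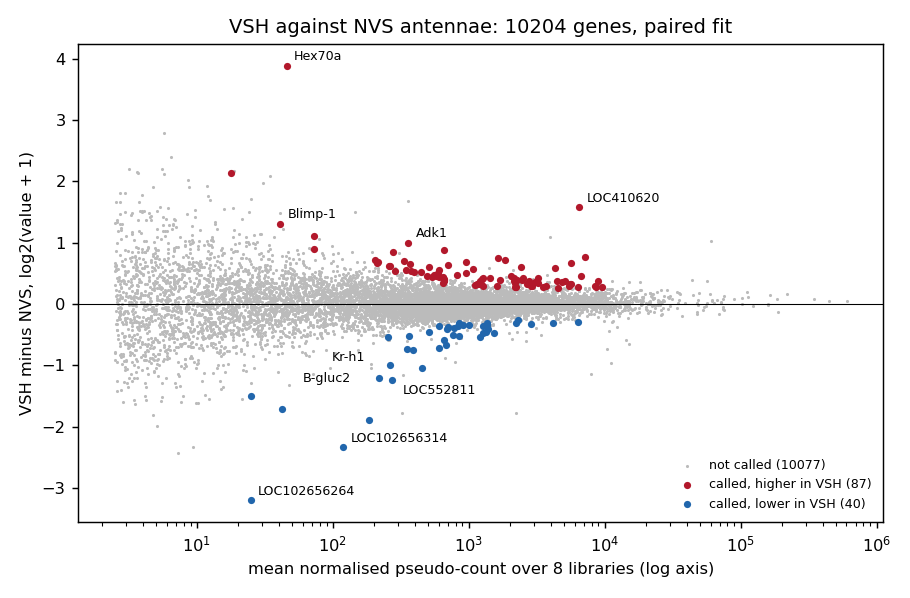
Difference between VSH and NVS antennae on log2(value + 1) against the mean normalised pseudo-count over the 8 libraries, 1 point a gene, on a log axis for the level. Called genes (87 higher in red, 40 lower in blue) lie mostly at intermediate levels, and most of them at differences under 1.

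The 4 genes that passed with and without the pairs all rose. Adk1, adenylate kinase 1, which balances the adenine nucleotides of the cell, stood at 591, 436, 421 and 477 in VSH libraries 1 to 4 and at 290.2, 202, 253 and 216 in NVS libraries 1 to 4. All VSH libraries lay above all NVS libraries, and the log2 difference was 1.0 ± 0.10 (SE, 4 pairs; adjusted p = 0.00284 with pairs and 0.0284 without). LOC726625, annotated as luciferin 4-monooxygenase-like, belongs to a family of enzymes that activate acids with ATP. Its values were 824, 916, 879 and 761 in VSH and 535, 526, 408 and 377 in NVS, again without overlap, and it rose by 0.88 ± 0.09 (adjusted p = 0.00284). IGFn3-2, an immunoglobulin and fibronectin type III domain protein, ran from 304 to 433 in VSH and from 188 to 211 in NVS and rose by 0.85 ± 0.12 (adjusted p = 0.0163). LOC725489, a protein-coding gene without a description, was at 2782, 3256, 2887 and 2796 in VSH and at 2120.1, 1841, 2022 and 1715 in NVS, a rise of 0.61 ± 0.07 (adjusted p = 0.00824). Adk1 and LOC726625 kept an adjusted p under 0.05 with any pair left out, whereas IGFn3-2 lost it without pair 3 (0.0695) or pair 4 (0.0649) and LOC725489 without pair 3 (0.0623). The other 123 called genes had an adjusted p of 0.0795 to 0.530 without the pairs.

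**Figure D2:**
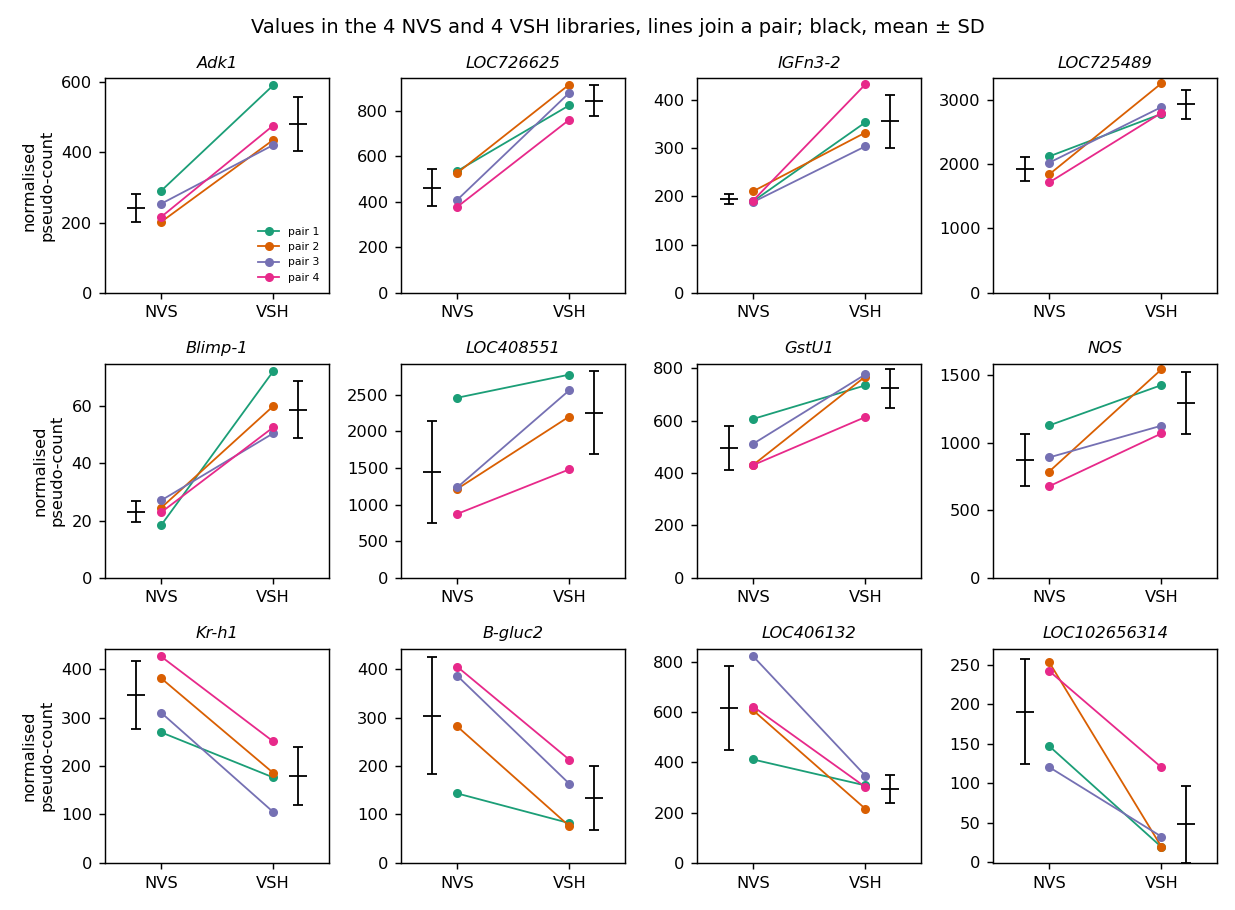
Normalised pseudo-counts of 12 genes in the 4 NVS and 4 VSH libraries, with a line joining each age-matched pair and, in black, the mean ± SD of each group. Every line rises in the upper 8 panels and falls in the lower 4; Adk1, LOC726625, IGFn3-2, LOC725489, Blimp-1, GstU1, Kr-h1, LOC406132 and LOC102656314 show no overlap between the groups, while LOC408551, NOS and B-gluc2 overlap and separate only within pairs.

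Regulators of gene expression moved in both directions. Blimp-1, a zinc finger repressor that ecdysone induces in Drosophila, was at 72.3, 60.1, 50.6 and 52.6 in VSH and at 18.4, 24.5, 27.1 and 22.9 in NVS. The groups did not overlap, and it rose by 1.31 ± 0.26 (adjusted p = 0.0369). Kr-h1, kruppel homolog 1, the zinc finger factor that juvenile hormone induces, went the other way. It stood at 176, 186, 105 and 251 in VSH and at 269.6, 381, 310.2 and 426 in NVS, with no overlap and a log2 difference of −0.99 ± 0.15 (adjusted p = 0.0163). Of 21 genes of juvenile hormone, ecdysone and insulin signalling, these 2 were called, against 1.24% of all genes. Smaller rises were seen in Camta, a calmodulin-binding activator (0.42 ± 0.06, adjusted p = 0.0163), in Dsp1, a high mobility group protein (0.39 ± 0.07, adjusted p = 0.025), in NFAT, of a family controlled by calcium (0.30 ± 0.06, adjusted p = 0.0495), and in the homeobox gene onecut (0.29 ± 0.06, adjusted p = 0.0495). MOX-2, mesenchyme homeobox 2, was lower in every pair, at 12 to 15.3 in VSH and 24.4 to 43.6 in NVS, but did not pass (adjusted p = 0.116).

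Several genes of neuronal signalling rose, most of them by less than 1 on the log2 scale. NOS, nitric oxide synthase, which makes a diffusible signal used in insect olfaction, was at 1426, 1542, 1126 and 1068 in VSH and at 1128, 786, 891 and 677 in NVS. The groups overlapped, yet each VSH library was above its own pair mate, and the rise was 0.58 ± 0.10 (adjusted p = 0.0254). LOC100577004, a probable G-protein coupled receptor, was at 679.9, 705, 488 and 603 in VSH and 457, 459.8, 337 and 367 in NVS and rose by 0.61 ± 0.08 (adjusted p = 0.0163), with pair differences of only 0.53 to 0.72. GABA-B-R1, a subunit of the metabotropic GABA receptor, rose by 0.34 ± 0.07 (adjusted p = 0.0495), and Syt4, a synaptotagmin of the vesicle membrane, by 0.29 ± 0.06 (adjusted p = 0.0405). The potassium channel LOC413503 (TWiK family) ran from 78.4 to 111 in VSH and from 46.9 to 54.1 in NVS, a rise of 0.89 ± 0.19 (adjusted p = 0.0488). LOC552179, raB3-GEF-like, of a family that activates Rab proteins of synaptic vesicles, rose by 0.68 ± 0.13 (adjusted p = 0.0326). LOC725280, cysteine-rich motor neuron 1 protein-like, was at 80.2 to 129 in VSH and 39 to 57.9 in NVS and rose by 1.11 ± 0.19 (adjusted p = 0.025). The genes fax (0.38 ± 0.07) and mmd (0.47 ± 0.08) rose as well, with adjusted p of 0.0333 and 0.0254. So did neur, neuralized, counted below with Notch signalling (0.44 ± 0.09, adjusted p = 0.0405).

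The lists of neural genes are read against 0.853% of all genes higher, 0.392% lower and a median of −0.002. Of 35 genes of synapse and neuron, 2 rose and none fell, with a median of 0.06; agrin-like LOC409949 and Syt4 were the 2. Of 29 ion channels and pumps, 2 rose (LOC413503 and the aquaporin LOC725165) and none fell, with a median of 0.10. In all 4 pairs 9 were higher and none lower, against 11.5% and 12.8% of all genes. Of the 22 found by symbol none was called, 4 were higher and none lower in all 4 pairs, and the median was 0.04. Vha16, of the vacuolar proton pump, was not in this list and was called (0.29 ± 0.06, adjusted p = 0.0487). Of 17 neuropeptides and receptors LOC100577004 alone passed, with a median of 0.15. Of 25 genes of biogenic amines and transmitters, a list that did not hold the called GABA-B-R1, none passed, with a median of 0.13 and 18 positive differences. Among these the octopamine receptor Octbeta2R was at 729 to 815 in VSH and 589 to 736 in NVS (log2 difference 0.27, adjusted p = 0.0979), and NT-7, a neurotransmitter transporter, at 144 to 268 and 111 to 157 (0.68, adjusted p = 0.0787). Sums of the 4 neuronal markers were 20137 to 25483 in VSH and 19318 to 21622 in NVS, and those of the 4 glial markers 38378 to 43539 and 36681 to 47302, none of them called. Some list members, among them the called genes LOC409949, LOC413503, LOC725165 and LOC100577004, were found by description. The study gave these descriptions to genes it had picked on these libraries, so these lists are not independent of the comparison.

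Carrier proteins of the sensillum lymph changed in 2 of 22 genes, both upward (0.853% of all genes rose). CSP2, chemosensory protein 2, was at 571, 406, 474 and 345 in VSH and at 446, 214, 314 and 203 in NVS. The groups overlapped, but each pair had the higher value in VSH and the rise was 0.66 ± 0.11 (adjusted p = 0.0237). Obp17, an odorant-binding protein, differed by 0.21 to 0.34 in the 4 pairs, at 9166, 10560.5, 12603 and 9664 in VSH and 7492, 8656, 9991 and 8358 in NVS (0.28 ± 0.06, adjusted p = 0.0388). None of 53 odorant receptors and none of 11 gustatory and ionotropic receptors passed. The odorant receptor nearest to the threshold, LOC102653581, was at 155, 135, 139 and 198 in VSH and 247, 237, 259.5 and 225 in NVS, with no overlap (log2 difference −0.64, adjusted p = 0.0516).

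Enzymes that modify odorants, toxins and hormones were called in both directions. CYP336A1, a cytochrome P450, was at 8725, 8668, 6665 and 7045 in VSH and 5358, 5901, 5436 and 5809 in NVS, without overlap, and rose by 0.46 ± 0.07 (adjusted p = 0.0225). Of 29 P450 genes it alone was called, against 1.24% of all genes. Its neighbour in gene order on the Amel_HAv3.1 assembly, LOC410852, also rose. GstU1, a glutathione S-transferase, was at 734, 768, 776 and 613 in VSH and 606, 431, 511 and 430.2 in NVS (0.55 ± 0.09, adjusted p = 0.025). The conjugating enzymes LOC411021, a UDP-glycosyltransferase (0.71 ± 0.14), and LOC411376, a sulfotransferase (0.45 ± 0.08), and the carboxylesterase LOC726134 (0.50 ± 0.09) rose too, with adjusted p of 0.0384, 0.0254 and 0.0254. Against these, LOC409801, esterase E4-like, was at 261, 302, 922 and 694 in VSH and 627, 442, 1183 and 991 in NVS. It fell by 0.67 ± 0.12 on the log2 scale (adjusted p = 0.0313) through lower values in each pair, although the groups overlapped widely. MsrA, which repairs oxidised methionine, was at 1146 to 1372 in VSH and 1578 to 2067 in NVS and fell by 0.48 ± 0.10 (adjusted p = 0.0426). In the list of other detoxication and redox genes, 4 of 49 rose and 2 fell, against 0.853% and 0.392% of all genes. Of the 49, 11 came from the study's own descriptions, and of the 6 calls 2 were of genes found by symbol.

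Of 15 genes of the basement membrane and matrix 4 rose and none fell, against 0.853% and 0.392% of all genes. The median was 0.22, 12 differences were positive and 3 negative, and 6 genes were higher and none lower in all 4 pairs. The study's own descriptions of genes picked on these libraries supplied 9 of the 15 and 3 of the 4 calls, so the count is not independent evidence; of the 6 found by symbol, 1 was called. LOC408551, collagen alpha-1(IV)-like (viking), was at 2773, 2201, 2559.6 and 1479.6 in VSH and 2457, 1213, 1233 and 872 in NVS. Its gene neighbour LOC408552, the other collagen IV chain, was at 1569.6, 1057, 1322 and 725 in VSH and 1278, 625, 685 and 442 in NVS. Both were highest in the youngest and lowest in the oldest pair in each group, and were higher in VSH within every pair, by 0.17 to 1.05 for LOC408551 and 0.30 to 0.95 for LOC408552. The mean differences were 0.71 ± 0.11 and 0.68 ± 0.09 (adjusted p = 0.0163 for both; 0.344 and 0.392 without the pairs). Without pair 3 or pair 4 none of the 15 genes passed. Agrin-like LOC409949, a proteoglycan, rose by 0.43 ± 0.08 (adjusted p = 0.0254), and BM-40-SPARC, a collagen-binding protein, by 0.30 ± 0.06 (adjusted p = 0.0462). Haemocyte markers moved the same way: all 5 had a positive difference and none was called, with sums of 6984, 6246, 6758 and 6253 in VSH and 6222, 6201, 5817 and 6106 in NVS. Among them NimC2, a phagocytic receptor, was at 134 to 293 in VSH and 117 to 139 in NVS (0.57, adjusted p = 0.106), and PPO at 205.01 to 754 and 182 to 499 (0.64, adjusted p = 0.123). Their part in the collagen result was not tested.

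Heat-shock genes split into those that rose with VSH and those that did not, and NVS library 2 decided much of the picture. LOC410620, heat shock protein Hsp70Ab-like, was at 10480.0, 9543, 6467 and 8256 in VSH. In NVS it was at 2299, 11879.7, 1436 and 1724. It rose by 1.58 ± 0.32 (adjusted p = 0.0426) and by 2.21 without pair 2, and it was the single called gene that did not share its direction in all pairs (−0.32 in pair 2). Without pair 1, 3 or 4 it did not pass (adjusted p = 0.0803, 0.178 and 0.168). The co-chaperone LOC411071, dnaJ homolog 1-like, showed the same profile, 9438, 9766, 8349.9 and 7446 in VSH against 4326, 9564, 3946 and 4203 in NVS (0.77 ± 0.14, adjusted p = 0.0292, and 1.01 without pair 2). So did the water channel LOC725165, aquaporin-4-like (0.67 ± 0.12, adjusted p = 0.0254), and LOC727486, without a description (0.59 ± 0.11, adjusted p = 0.0313): in both, NVS library 2 lay inside the VSH range and the other NVS libraries below it. Hsp90 was at 90491, 80902, 63695 and 65478 in VSH and 32806, 104914, 27936 and 18216 in NVS, which did not pass (1.03 ± 0.26, adjusted p = 0.0829) and passed without pair 2 (1.5, adjusted p = 0.000108).

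Small heat-shock proteins of the lethal(2)essential for life type did not follow. LOC410087 was at 16410.1, 4671, 4505 and 4647 in VSH and 9148, 32324, 9084 and 8540.3 in NVS, so that VSH library 1 and NVS library 2 were high (log2 difference −0.96, adjusted p = 0.23). Without pair 1 it passed as lower in VSH (−1.56, adjusted p = 0.0176), and without pair 2 the difference was −0.35. LOC412197 had the same 2 high libraries (−1.13, adjusted p = 0.149; −1.74 without pair 1, adjusted p = 0.00455, and −0.59 without pair 2). Over the whole list of 22 heat-shock and chaperone genes, 2 rose and 1 fell, against 0.853% and 0.392% of all genes. The median was −0.07, with pair medians from −0.51 in pair 2 to 0.39 in pair 1. The study's own descriptions supplied 12 of the 22 and every call, so the count is not independent evidence. Of the 10 found by symbol, none was called. The gene that fell, LOC410890, canopy-1-like, of the endoplasmic reticulum, was at 511, 397, 508 and 403 in VSH and 624, 827, 895 and 654 in NVS (a log2 difference of −0.71 ± 0.11, adjusted p = 0.0163).

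**Figure D3:**
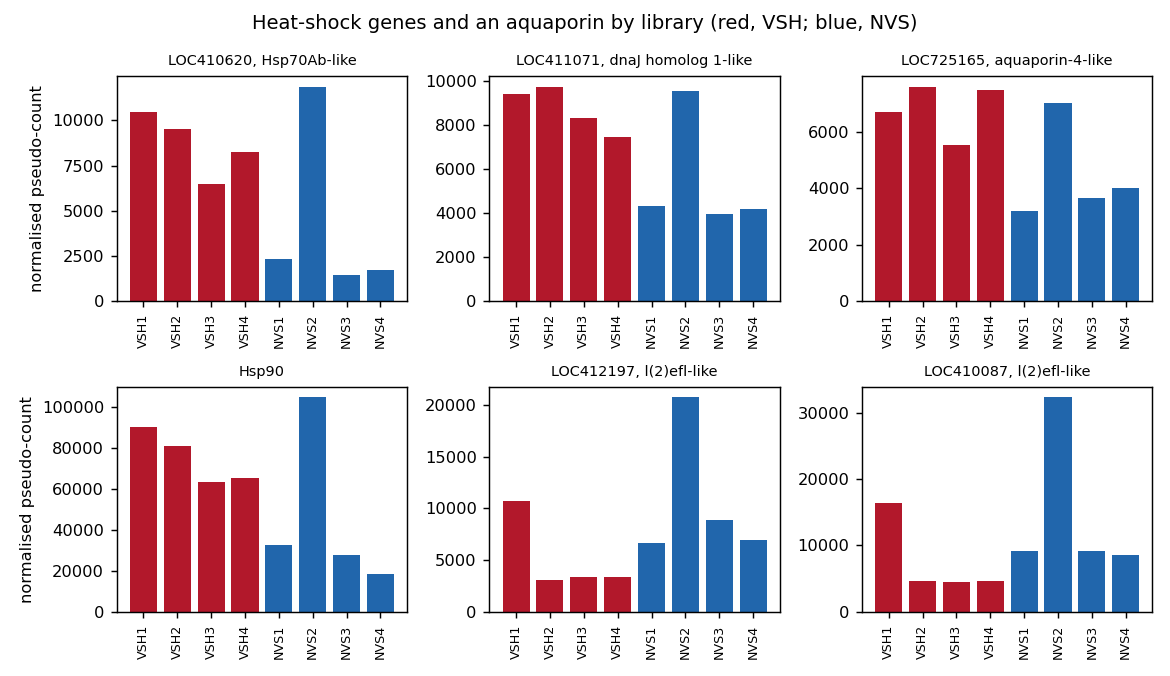
Normalised pseudo-counts of 5 heat-shock genes and an aquaporin in each library (red, VSH; blue, NVS; bars start at 0, no replicates within a library). In the upper panels and Hsp90, NVS library 2 is as high as the VSH libraries and the other NVS libraries are lower; in LOC412197 and LOC410087, VSH library 1 and NVS library 2 are the high ones.

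Of 10 genes of haemolymph and storage proteins, Hex70a and Rfabg rose and none fell (0.853% and 0.392% of all genes), and 6 had a positive and 4 a negative difference. Hex70a, a hexamerin that stores amino acids, was at 7.05, 4.23, 5.85 and 349.9 in VSH and at 0.0314, 0, 0 and 1.06 in NVS. The difference was 3.89 ± 0.83 (adjusted p = 0.0488) and 2.71 without pair 4. With NVS values this close to 0 the size depends on the pseudocount, at 4.64 with 0.5 and 2.48 with 4, where it did not pass (adjusted p = 0.116). It also did not pass without any 1 of the pairs (adjusted p = 0.0504 to 0.219). Hex110 (175 in VSH library 4 and 12.9 to 32.7 in the other VSH libraries, against 4.15 to 10.8 in NVS; adjusted p = 0.0624) and Vg, vitellogenin (2146 against 74.7 to 204, and 69.4 to 89.6 in NVS; adjusted p = 0.182), were highest in the same library. Rfabg, the precursor of the lipid carrier apolipophorin, was also highest in VSH library 4, but lay closer to the other VSH libraries. It was at 1507, 1664, 1377 and 2076 in VSH and 1031, 1242, 1224 and 1389 in NVS (0.43 ± 0.07, adjusted p = 0.0254). Its differences in pairs 1 to 4 were 0.55, 0.42, 0.17 and 0.58. Muscle genes were high in VSH library 4 too, with TpnT, troponin T, at 339.9 there and 8.9 to 39.6 in the other 7 libraries, and Mlc2, a myosin light chain, at 223 and 0 to 12.9. None of 29 muscle genes passed, and their median of 0.75 became 0.06 without pair 4. The part of muscle or haemolymph in other results of VSH library 4 was not tested.

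Among the genes that fell, histone genes and single genes of immunity and cuticle tanning were called. All 9 genes of the histone list had a negative difference, where 49.4% of all genes had a positive one. Of the 9, 2 passed as lower, both of histone H4, against 0.392% of all genes. LOC406132, histone H4, was at 308, 215, 347 and 302 in VSH and 411, 607, 821 and 621 in NVS, without overlap (a log2 difference of −1.05 ± 0.14, adjusted p = 0.0163). LOC725230, histone H4-like, was at 1076, 709, 1248 and 916 in VSH and 1109, 1322, 1761 and 1508 in NVS (a log2 difference of −0.54 ± 0.11, adjusted p = 0.0426). Another, LOC102655073, was at 45.4, 28.5, 51.1 and 41.4 in VSH and 45.1, 75, 164 and 119 in NVS (−1.13, adjusted p = 0.0696). The median over the 9 genes was −0.04 in pair 1 and −0.63 to −0.85 in the other pairs, and 0 to 7 of the genes passed when 1 pair was left out. Histone H4 genes are near-identical copies, so how reads were shared among them is uncertain. The study's own descriptions of genes it had picked supplied 8 of the 9, so their common direction is not independent evidence. The 1 gene found by symbol had a log2 difference of −0.14 and was not called.

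B-gluc2, a recognition protein for fungal and bacterial glucans, was at 82.2, 76.2, 163 and 213 in VSH and 143, 282, 386 and 405 in NVS and fell by 1.21 ± 0.17 (adjusted p = 0.0163). It was highest in the oldest pair of both groups and lower in VSH within each pair. LOC552811, laccase-5-like, of the oxidases that tan cuticle, was at 107, 97.6, 132.5 and 239 in VSH and 119.9, 222, 578 and 675 in NVS, and fell by 1.24 ± 0.24 (adjusted p = 0.0326), with −0.16 in pair 1 and −2.12 in pair 3. In the other direction 18-w, a Toll-family receptor, rose by 0.45 ± 0.10 (adjusted p = 0.0488). Of 88 genes in immune recognition and signalling these 2, B-gluc2 and 18-w, were called, against 1.24% of all genes, and the median was 0.004. None of 7 antimicrobial peptide genes passed; Def1, defensin 1, was at 267 to 642 in VSH and 337 to 1098 in NVS (−0.57, adjusted p = 0.101).

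Further falls were seen in transport, secretion and metabolism. LOC413816, a sulfate anion transporter, was at 243, 262, 255 and 294 in VSH and 406, 543, 343 and 478 in NVS and fell by 0.73 ± 0.11 (adjusted p = 0.0163). LOC552556, arginase-1-like, which breaks down arginine, was at 197 to 220.2 in VSH and 289 to 330.2 in NVS and fell by 0.54 ± 0.11 (adjusted p = 0.0388). In lipid metabolism LOC100578329, a fatty acyl-CoA reductase, which makes fatty alcohols, fell by 0.47 ± 0.08 (adjusted p = 0.025) and LOC411706, a membrane phospholipase B1, by 0.52 ± 0.10 (adjusted p = 0.0344). Sec61alpha, the channel through which new proteins enter the endoplasmic reticulum, was at 3599.7 to 3898 in VSH and 4212 to 4893 in NVS and fell by 0.31 ± 0.05 (adjusted p = 0.0254), as did LOC413627, the gene beside it on Amel_HAv3.1. LOC725266, a subunit of the oligosaccharyltransferase of the same membrane, rose by 0.55 ± 0.11 (adjusted p = 0.0405). PRM1, described as TAR RNA-binding protein 2, was at 599 to 675 in VSH and 839 to 1010.3 in NVS, a log2 difference of −0.50 ± 0.08 (adjusted p = 0.0163). The F-box gene LOC724642 and the kinase LOC411871 fell by 0.75 ± 0.15 and 0.59 ± 0.13 (adjusted p = 0.0363 and 0.0497), and the kelch-like gene LOC413270 rose by 0.62 ± 0.12 (adjusted p = 0.0363).

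Among called genes the 3 largest falls were in genes without a description. LOC102656264, a long noncoding RNA, was at 1.19, 0, 5.16 and 27.1 in VSH and 30.6, 51, 27.2 and 57.3 in NVS (a log2 difference of −3.20 ± 0.63, adjusted p = 0.0365). LOC102656314 was at 19.3, 19.6, 32.4 and 120.2 in VSH and 147, 253, 120.4 and 242 in NVS (a log2 difference of −2.34 ± 0.33, adjusted p = 0.0163), and LOC724275, which codes for a protein, at 91.6, 40.8, 46.5 and 125 against 123, 457, 196 and 386 (a log2 difference of −1.89 ± 0.34, adjusted p = 0.0292). LOC725381, another long noncoding RNA, fell by 1.7 ± 0.34 (adjusted p = 0.0369). In all 4 of these VSH library 4 was the highest of its group. Among the genes that rose, LOC102656144 was at 41, 46.6, 6.45 and 25.8 in VSH and 9.64, 7.78, 2.5 and 2.28 in NVS (2.14 ± 0.43, adjusted p = 0.0405). In all, 39 of the 87 higher and 22 of the 40 lower genes had no informative name or description, and 44 and 22 were not among the genes that the study's own tables list for this comparison.

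No ribosomal protein gene passed. Of 59 cytosolic ribosomal protein genes 54 had a positive difference, 21 at an unadjusted p under 0.05, against 49.4% positive and 9.08% over all genes, and the median was 0.11 (pair medians 0.07, 0.16, 0.24 and −0.03). Rpl39, with the smallest p, was at 2835, 3089, 3879 and 3724 in VSH and 2427, 1907, 2489.6 and 3498 in NVS (0.41 ± 0.09, adjusted p = 0.056). Of 53 mitochondrial ribosomal protein genes 47 had a negative difference, 13 at an unadjusted p under 0.05, against 8% lower over all genes. The median was −0.10 (pair medians −0.10, −0.11, −0.03 and −0.10). There mRpL4 was at 545 to 725 in VSH and 676 to 836 in NVS (−0.35 ± 0.08, adjusted p = 0.0558). Both medians kept their sign with equal totals (0.08 and −0.12) and with any pair left out. Genes of mitochondrial respiration (24, median 0.03), of translation factors and tRNA synthetases (29, median −0.02), of the proteasome and ubiquitin (25, median −0.01) and of cuticle and chitin (35, median −0.01) lay near 0.

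Among growth-factor and clock genes neur alone passed, against 1.24% of all genes. Of 28 genes of TGF-beta, Notch, Wnt and EGF signalling 10 were higher and 1 lower in all 4 pairs (11.5% and 12.8% of all genes). A positive difference was seen in 18 (49.4% of all genes), and the median was 0.10. The study's own descriptions supplied 3 of the 28. Of the 25 found by symbol, 7 were higher and 1 lower in all 4 pairs, 15 had a positive difference, and the median was 0.04. The ligands LOC726478, activin-like, at 209 to 280.0 in VSH and 139.7 to 220.2 in NVS, and gbb, at 97.3 to 177 and 43 to 76, had adjusted p of 0.0605 and 0.0749. Of 8 clock genes 5 had a positive difference, 3 were higher and 1 lower in all 4 pairs, and none passed: Pdp1 was at 10848 to 12079.9 in VSH and 9076 to 10055 in NVS (0.24, adjusted p = 0.0749), and its counterpart Vri, the repressor of the same loop, at 3943 to 4141 and 4291 to 5082 (−0.17, adjusted p = 0.149), both without overlap.

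**Figure D4:**
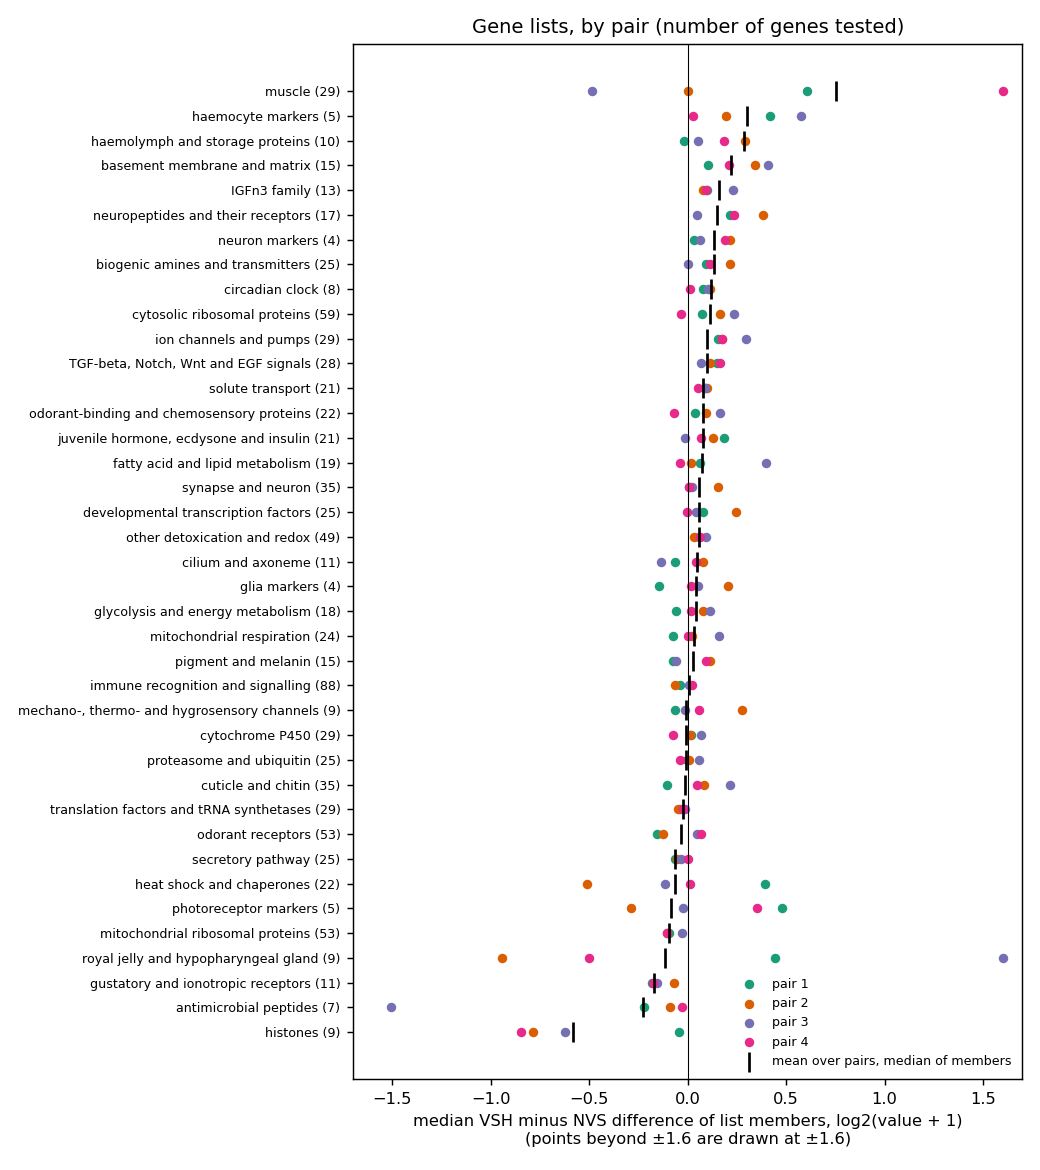
Median difference between VSH and NVS of the members of each gene list on log2(value + 1), in each of the 4 pairs (coloured points) and for the mean over pairs (black bars), with the number of genes tested in brackets and points beyond the axis drawn at its edge. Histones lie lowest and muscle highest, and in muscle, royal jelly, antimicrobial and heat-shock genes the pairs scatter most. Ion channels, growth-factor signals and the basement membrane lie above 0 in all 4 pairs, as do several other lists, among them neuropeptides and haemocyte markers.

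Counting direction alone, 1177 genes (11.5%) were higher and 1303 (12.8%) lower in VSH in all 4 pairs, and 470 (4.61%) and 439 (4.3%) by more than 0.1. A difference over 0.5 in every pair was found in 66 genes (0.647%), 40 higher and 26 lower, of which 15 were called. The other 51 were weakly expressed, with mean values up to 49.8, and had adjusted p from 0.0558 to 0.548. Of the 66, 13 (19.7%) were long noncoding RNAs, which made up 6.45% of the genes tested, with 9 of the 13 lower in VSH. The median level of the 66 was 11.5, against 593 over all genes. In the paired fit 0.76% of long noncoding RNAs were called, against 1.24% of all genes. A difference over 1 in every pair was found in 13 genes, 8 higher (0.0784%) and 5 lower (0.049%), of which 5 were called: Hex70a, LOC102656144, LOC102656264, LOC100576969 and LOC102656314.

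Genes in that set with a description covered several functions. LOC102656542, of the nuclear matrix protein Skeletor, was at 28.1, 15.1, 16.8 and 20.1 in VSH and 8.84, 5.8, 6.51 and 7.6 in NVS (1.34, adjusted p = 0.107). LOC102656109, titin-like, was at 10.9 to 17 in VSH and 2.27 to 7.08 in NVS (1.53, adjusted p = 0.124), and did not share the excess of other muscle genes in VSH library 4. LOC551714, a cGMP-dependent protein kinase, was at 0.285, 0, 2.7 and 4.56 in VSH and 4.88, 8.4, 8.38 and 11.8 in NVS (−1.99, adjusted p = 0.145). LOC410820, otopetrin-2-like, of a family of proton channels, was at 22.1 to 37 in VSH and 10.7 to 21.5 in NVS (1.09, adjusted p = 0.115).

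The 4 pairs agreed only loosely with each other over all genes. The SD of the VSH minus NVS difference was 0.526 to 0.602 in a pair, and the differences of 2 pairs correlated by 0.011 to 0.136 over 10204 genes. Among the 127 called genes the smallest difference fell in pair 1, the youngest bees, in 65 genes and the largest in pair 2 in 58 genes. Median differences of the higher genes were 0.34, 0.52, 0.42 and 0.42 in pairs 1 to 4, and of the lower genes −0.31, −0.53, −0.39 and −0.55. A term for a change of the difference with the age of the pair passed in no gene (smallest adjusted p = 0.296, limma), and 457 genes (4.48%) had an unadjusted p under 0.05, so a dependence on age was not detectable in 4 pairs. Leaving out pair 1, 2 or 3 gave 26, 36 and 8 calls for this term, and leaving out pair 4 none.

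The called genes were then read in the 2 forager and 3 nurse libraries, which share no library with the comparison. Of the 86 higher genes that could be tested there, 55 (64%) were lower in foragers than in nurses, and of the 40 lower genes 10 (25%), against 50.3% of the 10126 genes tested in both tables. Nurse library 2 was far from the other nurse libraries in some of these genes, and without it the shares were 69.8%, 30% and 50.9%. Kr-h1, lower in VSH, was at 641 and 1072 in foragers and 269, 128 and 123 in nurses. LOC552811, the laccase, was at 4054 and 3430.0 in foragers and 312, 129 and 213 in nurses, and B-gluc2 at 323 and 452 against 95.5, 15 and 186. In the other direction LOC408551 was at 1095 and 1328 in foragers and 6312, 31921 and 8400.3 in nurses, and CSP2 at 217 and 279 against 778, 1799 and 832. Blimp-1 did not show this contrast (−0.05), nor did LOC726625 (0.24), on the log2 scale. In this second comparison 10 of 10436 genes passed (0.0958%), among them the laccase and LOC725489. Kr-h1, B-gluc2, LOC408551 and CSP2 did not pass (adjusted p = 0.117, 0.342, 0.132 and 0.119, limma). Per the paper the foragers and nurses came from 3 standard hives, and their ages were not given.

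**Figure D5:**
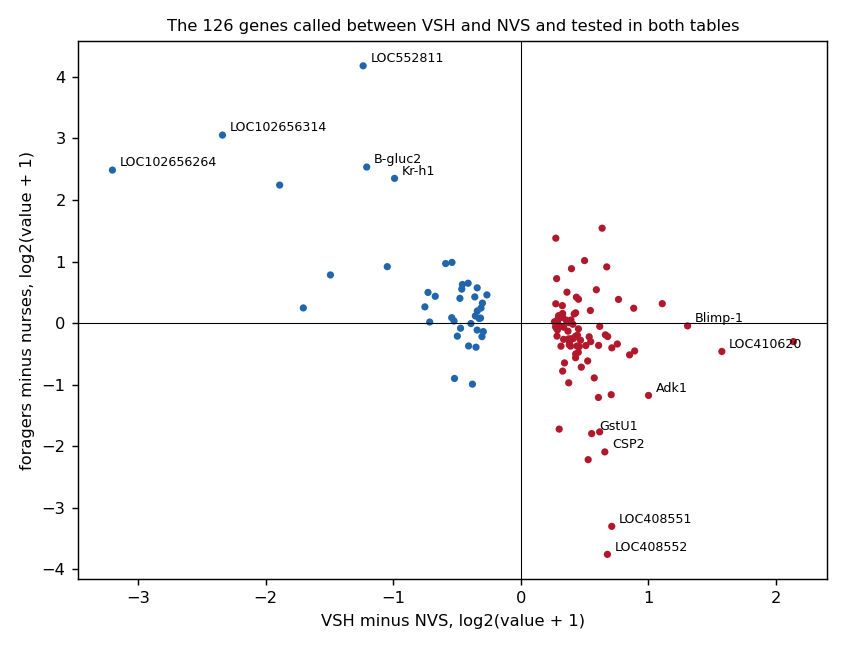
Foragers minus nurses against VSH minus NVS, both on log2(value + 1), for the 126 called genes tested in both tables (red, higher in VSH; blue, lower in VSH). Most blue points (30 of 40) lie above 0 and most red points (55 of 86) below it, with LOC552811 and the collagen genes LOC408551 and LOC408552 at the extremes.

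Positions of the called genes were read only as gene order on Amel_HAv3.1, a later assembly than the one the values were counted on, which did not place every called gene. Only 4 pairs of called genes stood next to each other: the collagen genes LOC408552 and LOC408551, LOC410852 with CYP336A1, LOC413627 with Sec61alpha, and LOC724299, which rose by 0.33, with LOC724341, which fell by 0.35.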

How the data were processed

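RNA of antennal flagella was sequenced from 4 VSH and 4 NVS libraries. Per the labels and methods, the authors used CASAVA 1.8.2, TopHat2 with Bowtie2 2.2.3 and HTSeq 0.6.1p1, then edgeR 3.4.0, and deposited pseudo-counts scaled between libraries, a signal and not raw counts. Values were taken as log2(value + 1), genes with a sum of at least 20 were kept, and limma 3.58.1 in R 4.3.3 fitted the group with the pair as a block, a variance trend and Benjamini-Hochberg adjustment at 0.05. The study's own test was unpaired. The pairing comes from the matched ages in the labels. Deviations from group means correlated by 0.161, 0.215, 0.276 and 0.388 within pairs 1 to 4, and VSH library 1 correlated more with NVS library 2 (0.279).

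On simulated data for this comparison with 10204 genes, 9, 35, 44 and 49 of 50 genes changed by 0.25, 0.5, 1 and 2 on the log2 scale were recovered. In the same run 6 unchanged genes were called. Noise was normal and independent, with each gene's own residual SD, and the changed genes all had a mean of at least 50. Recovery in weaker genes, and effects that many genes of a library share, were therefore not covered. The comparison, gene lists and genes were chosen with earlier results of these data known. Named genes were the 15 largest described changes each way, the 4 largest undescribed each way, the genes called without pairs, up to 4 genes of each list by p, and cell type markers. Not all of these are printed, and the others were chosen for annotated function or gene order after their values were seen. Wrong name matches were removed from the lists. Alternatives were the pairs, age, pseudocount, filter, scaling, variance model and each pair left out. Gene names and order came from RefSeq Amel_HAv3.1.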

Additional observations from a re-analysis of the deposited data

Results flagged for a closer look

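Among the genes named, 184 groups of 4 libraries were checked for a library far from the other 3, and 10 such values were found (5.43%); chance alone flags about 5% of groups. NVS library 2 held 4 of them: LOC411071 (dnaJ) at 9564 against 3946 to 4326 in the other NVS libraries, LOC410087 (small heat-shock protein) at 32324 against 8540.3 to 9148, IGFn3-2 at 211 against 188 to 191.6, and gbb, the lowest, at 43 against 73.7 to 76. VSH library 1 was high in both small heat-shock genes, LOC410087 at 16410.1 against 4505 to 4671 and LOC412197 at 10696 against 3070.0 to 3381. Hex70a stood at 349.9 in VSH library 4 against 4.23 to 7.05, and at 1.06 in NVS library 4 against 0 to 0.0314. mRpL4 was at 725 in VSH library 3 against 545 to 572, and LOC410852 at 5276 in NVS library 3 against 5854 to 5941.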

How the results depend on the processing

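The direction of all 127 calls was kept in every setting. This was nearly fixed in advance, as 86 of the 87 higher and all 40 lower genes had 1 direction in all 4 pairs. The number of calls was not kept. Without the replicate block 4 genes were called, and 4 with mean age as a covariate in its place. There were 50 calls with no filter on low values, 78 with quantile normalisation, 0 without a variance trend (1346 at an unadjusted p under 0.05) and 194 with robust variance moderation. Leaving out 1 pair gave 2 to 213 calls, of which 95, 20, 2 and 8 were among the 127 without pairs 1, 2, 3 and 4. Equal totals gave 88 calls, 53.4% of them higher in VSH against 68.5%. Of the 65 called genes named, 4 passed without the pairs, 49 with equal totals and 2 without pair 3. Calls for a dependence on age ranged from 0 to 36 when 1 pair was left out, with 1 residual degree of freedom. Asking for at least 0.1 or 0.5 in each pair left 470 and 40 higher genes, and 439 and 26 lower genes. Of the named genes only repo, with a log2 difference of 0.0139, changed sign: −0.0119 with equal totals, −0.00858 with quantile normalisation, and −0.0803 to 0.097 when 1 pair was left out. Read depth was unknown.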
